A study of Mus musculus with 16 samples.

Results

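The Nr4a genes Nr4a1, Nr4a2 and Nr4a3 encode the 3 orphan nuclear receptors of the NR4A group. They were followed through the radiation response of mouse bone marrow stem and progenitor cells. The array table names 19937 genes on rows with 1 symbol, and each Nr4a gene has exactly 1 such row (transcript clusters 10427035, 10482772 and 10504838). The genes were chosen by the measured fall of their log2 level in LSK cells after irradiation, so those differences are given as a description without a test. The series measured messenger RNA on 16 Affymetrix Mouse Gene 1.0 ST arrays, each loaded with RNA from 1 pool of at least 3 C57BL/6J mice. The groups were Parp-2-/- LSK cells irradiated with 5 Gy and taken 2.5 hours later, Parp-2-/- LSK cells left unirradiated, WT LSK cells irradiated in the same way, WT LSK cells left unirradiated, and the same 4 combinations of genotype and irradiation in MP cells. LSK cells are lineage-negative bone marrow cells that carry Sca1 and c-Kit and include the haematopoietic stem cells. MP cells are myeloid progenitors, lineage-negative cells with c-Kit but without Sca1. Parp-2-/- mice lack Parp-2, an enzyme that attaches ADP-ribose to proteins at DNA breaks. The labels name no tissue to which the deletion is limited, and the age of the mice is not given in the sources used here. Each of the 8 groups held 2 pools, whose spread is the only measure of error.

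NR4A proteins are called orphan receptors because their ligand pocket is filled by side chains of the protein itself, so their activity follows largely from how much protein a cell makes. The genes are immediate early genes: signals through cyclic AMP, calcium and growth factor receptors switch them on within minutes to hours through factors that are already present, and the transcripts are short-lived. In mice, combined loss of Nr4a1 and Nr4a3 leads to acute myeloid leukaemia, and Nr4a1, Nr4a2 and Nr4a3 have each been tied to the quiescence of haematopoietic stem cells.

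The promoters are shown because the cyclic AMP response element is a well known control site of these genes. The sequences are RefSeq promoter windows of the GRCm38.p6 assembly, 250 bases before to 50 bases after an annotated transcript start, written 5′ to 3′ on the strand of the gene. Capitals mark every half-site of the element, TGACG on either strand, which reads CGTCA where it lies on the opposite strand. All 3 genes were found in the promoter table.
Nr4a1: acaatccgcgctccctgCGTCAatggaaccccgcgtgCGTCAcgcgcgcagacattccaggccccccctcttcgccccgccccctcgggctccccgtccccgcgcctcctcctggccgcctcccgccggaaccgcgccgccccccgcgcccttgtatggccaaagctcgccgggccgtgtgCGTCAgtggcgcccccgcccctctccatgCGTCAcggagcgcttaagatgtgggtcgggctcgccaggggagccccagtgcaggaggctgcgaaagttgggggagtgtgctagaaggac
Nr4a2: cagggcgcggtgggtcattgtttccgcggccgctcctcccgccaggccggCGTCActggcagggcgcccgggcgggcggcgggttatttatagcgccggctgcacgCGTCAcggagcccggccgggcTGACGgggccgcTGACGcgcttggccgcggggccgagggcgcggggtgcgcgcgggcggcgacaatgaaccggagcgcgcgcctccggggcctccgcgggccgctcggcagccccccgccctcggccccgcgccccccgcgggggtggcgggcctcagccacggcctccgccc
Nr4a3: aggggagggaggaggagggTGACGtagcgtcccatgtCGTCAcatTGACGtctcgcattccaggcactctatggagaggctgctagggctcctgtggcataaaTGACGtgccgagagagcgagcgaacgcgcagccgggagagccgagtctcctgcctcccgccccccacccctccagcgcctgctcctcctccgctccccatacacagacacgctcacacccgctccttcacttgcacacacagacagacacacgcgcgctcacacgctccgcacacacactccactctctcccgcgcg

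The Nr4a1 window lies at chr15:101266596-101266895 on the plus strand, inside the annotated gene at chr15:101253902-101274795. The Nr4a2 window lies at chr2:57123954-57124253 on the minus strand and spans the upstream end of the gene at chr2:57106830-57124003. The Nr4a3 window lies at chr4:48045055-48045354 on the plus strand and overlaps the start of the gene at chr4:48045078-48086447. Each window held exactly 4 half-sites. Counting from the transcript start, they began at -233, -213, -69 and -40 in Nr4a1, at -200, -144, -123 and -111 in Nr4a2, and at -231, -213, -205 and -147 in Nr4a3. The 4 in Nr4a1 all lay on the opposite strand, whereas Nr4a2 had 2 on each strand and Nr4a3 had 1 on the opposite strand.

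Of 32851 promoters of the same length in the RefSeq table, 20.8% held at least 1 half-site, 5.01% at least 2, 1.03% at least 3 and 0.231% (76 promoters) at least 4. The windows were rich in G and C, with 72.3% in Nr4a1, 81.7% in Nr4a2 and 64.7% in Nr4a3, and among 9690 promoters with at least 60% G and C the share with at least 4 half-sites was 0.557%. Every half-site of Nr4a1 was part of the 7 letters TGCGTCA, searched on both strands and overlapping the half-site. At least 1 copy of TGCGTCA occurred in 2.12% of promoters, and 4 copies occurred in 1 promoter of the table, that of Nr4a1. The full palindrome TGACGTCA (1.79% of promoters), the NR4A binding site AAAGGTCA (1.51%) and the CArG box bound by serum response factor (1.63%) had no match in the 3 windows. Of the 41 other immediate early genes described further on, 31 had a promoter in the table and 20 of these (64.5%) held at least 1 half-site. The same held for 11 of 38 other nuclear receptor genes (28.9%). These matches describe letters in the windows and were not tested for binding.

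**Figure D1:**
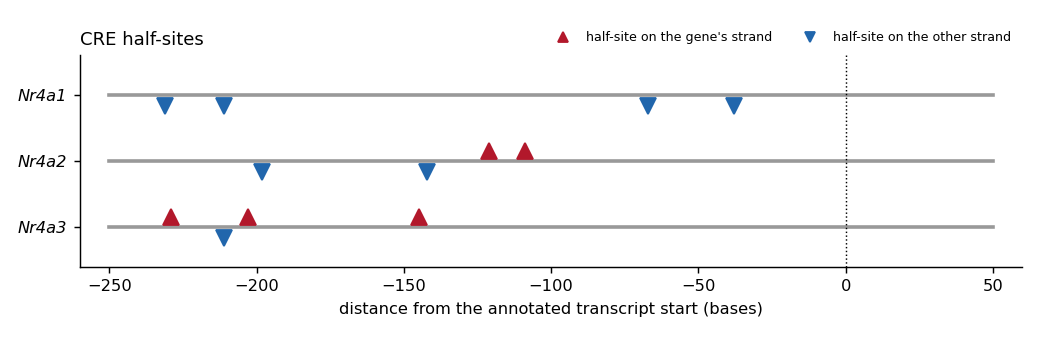
Positions of the cyclic AMP response element half-site TGACG in the promoter windows of Nr4a1, Nr4a2 and Nr4a3, with distance from the annotated transcript start in bases on the x axis and 1 gene per line. Upward triangles stand on the strand of the gene and downward triangles on the opposite strand, drawn at the centre of each half-site. Each gene has 4, all upstream of the start.

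The deposited values are log2 intensities, and every level below is on that scale. Array medians lay between 4.74 and 4.92, and a level under its own array's median cannot be taken to exceed background. As a check of the genotype labels, Parp2 ranged from 5.70 to 6.77 in Parp-2-/- LSK cells and from 7.40 to 7.96 in WT LSK cells (4 arrays each). In MP cells it ranged from 6.74 to 7.11 in Parp-2-/- and from 7.98 to 8.40 in WT, so the genotypes did not overlap in either cell type. The cell labels were checked on 12 LSK markers and 13 myeloid progenitor markers. The mean level over the LSK markers was 6.80 to 7.38 on the LSK arrays, against 5.64 to 6.12 on the MP arrays. The mean over the myeloid markers was 6.10 to 6.47 on the LSK arrays, against 7.85 to 8.19 on the MP arrays. Of 56 markers of 7 other cell types, 22 lay below the median of all 16 arrays: 4 of 8 for B lymphocytes, 6 of 9 for T and NK cells, 4 of 8 for endothelial and stromal cells, 3 of 9 for mature neutrophils, 2 of 10 for macrophages and monocytes, 2 of 7 for mast cells and basophils and 1 of 5 for megakaryocytes and platelets.

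Nr4a1 was the member that differed most between groups. It read 5.02 and 5.31 in irradiated Parp-2-/- LSK cells, against 8.60 and 7.16 in unirradiated Parp-2-/- LSK cells. It read 4.75 and 5.16 in irradiated WT LSK cells, against 9.39 and 8.39 in unirradiated WT LSK cells. Both pools of each irradiated LSK group therefore lay far below both pools of the unirradiated group, and close to the array median: the irradiated means stood 0.30 (Parp-2-/-) and 0.09 (WT) above it, with 1 of 2 WT arrays below.

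In MP cells the levels of Nr4a1 were low in every group. They were 4.62 and 4.46 in irradiated Parp-2-/- MP cells, both below the array median, against 6.01 and 4.77 in unirradiated Parp-2-/- MP cells. They were 4.86 and 4.76 in irradiated WT MP cells, against 6.13 and 5.29 in unirradiated WT MP cells. The irradiated pools again lay below the unirradiated pools, with less distance between them than in LSK cells.

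Ordered by mean level, Nr4a1 stood at 8.89 ± 0.71 in unirradiated WT LSK cells, 7.88 ± 1.02 in unirradiated Parp-2-/- LSK cells, 5.71 ± 0.60 in unirradiated WT MP cells, 5.39 ± 0.88 in unirradiated Parp-2-/- MP cells, 5.17 ± 0.20 in irradiated Parp-2-/- LSK cells, 4.95 ± 0.29 in irradiated WT LSK cells, 4.81 ± 0.07 in irradiated WT MP cells and 4.54 ± 0.11 in irradiated Parp-2-/- MP cells (SD, n = 2 each). The one wide step was that from unirradiated Parp-2-/- LSK cells to unirradiated WT MP cells, 2.17 against a pooled SD of 0.84. The pools of irradiated WT MP cells also lay above those of irradiated Parp-2-/- MP cells, at levels close to or below the array median where the size of a step is not measured. All other neighbours in this order overlapped.

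Nr4a2 lay above the array median on all 16 arrays. It read 5.49 and 5.66 in irradiated Parp-2-/- LSK cells, against 9.37 and 7.17 in unirradiated Parp-2-/- LSK cells. It read 6.22 and 6.80 in irradiated WT LSK cells, against 8.57 and 7.42 in unirradiated WT LSK cells. The irradiated and unirradiated LSK pools did not overlap in either genotype, and the unirradiated pools of one group differed from each other by up to 2.20.

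Nr4a2 in MP cells covered a narrow range. It read 6.12 and 5.69 in irradiated Parp-2-/- MP cells, against 6.92 and 6.40 in unirradiated Parp-2-/- MP cells, without overlap. It read 6.37 and 6.32 in irradiated WT MP cells, against 7.08 and 6.09 in unirradiated WT MP cells, with overlap. Unlike Nr4a1, Nr4a2 kept a level well over the array median in every irradiated group.

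The order of mean levels of Nr4a2 was 8.27 ± 1.56 in unirradiated Parp-2-/- LSK cells, 7.99 ± 0.81 in unirradiated WT LSK cells, 6.66 ± 0.37 in unirradiated Parp-2-/- MP cells, 6.58 ± 0.70 in unirradiated WT MP cells, 6.51 ± 0.41 in irradiated WT LSK cells, 6.34 ± 0.04 in irradiated WT MP cells, 5.91 ± 0.31 in irradiated Parp-2-/- MP cells and 5.57 ± 0.12 in irradiated Parp-2-/- LSK cells (SD, n = 2 each). Neighbours without overlap were unirradiated WT LSK over unirradiated Parp-2-/- MP cells (by 1.33), irradiated WT MP over irradiated Parp-2-/- MP cells (by 0.44) and irradiated Parp-2-/- MP over irradiated Parp-2-/- LSK cells (by 0.33). The lowest Nr4a2 group was thus an LSK group, although the highest groups were LSK groups as well.

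Nr4a3 lay below the array median on all 16 arrays, so its signal cannot be told from background and no fold is given for it. It read 3.67 and 3.78 in irradiated Parp-2-/- LSK cells, against 4.73 and 3.48 in unirradiated Parp-2-/- LSK cells. It read 3.88 and 3.97 in irradiated WT LSK cells, against 4.51 and 4.37 in unirradiated WT LSK cells. In MP cells all 8 values lay between 3.24 and 3.76, and the 4 irradiated values, 3.29 and 3.29 in Parp-2-/- and 3.24 and 3.58 in WT, stood beside 3.40 and 3.33 in unirradiated Parp-2-/- cells and 3.76 and 3.67 in unirradiated WT cells. The irradiated and unirradiated pools overlapped in Parp-2-/- LSK cells and in no other pair. Here and for Nr4a1 and Nr4a2 above, the share of all rows with such a separation was not counted. A lack of overlap between pools is therefore a description only.

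**Figure D2:**
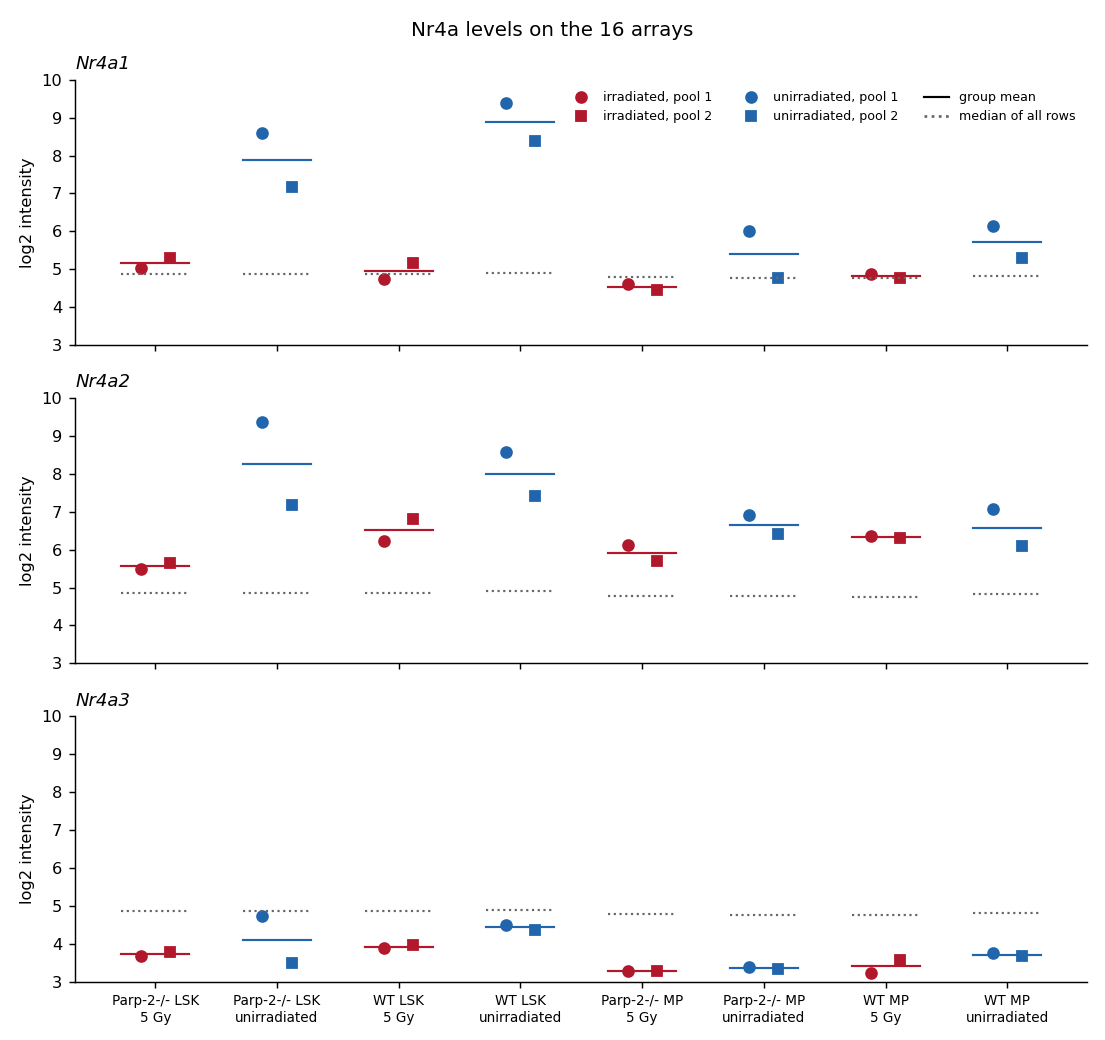
Level of Nr4a1, Nr4a2 and Nr4a3 (1 panel each; y axis, log2 intensity) in each pool of the 8 groups on the x axis. Circles are pool 1 and squares pool 2, red for irradiated and blue for unirradiated cells, solid lines are group means and dotted lines the mean over the pools of the median of all rows on the array. Nr4a1 and Nr4a2 are highest in unirradiated LSK cells, and Nr4a3 is below the dotted line everywhere.

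The radiation response of LSK cells is the contrast by which the genes were chosen. In it, Nr4a1 was lower by 2.72 ± 0.49 log2 units in irradiated than in unirradiated Parp-2-/- LSK cells, a ratio of 6.57 (difference ± SE of the linear model, n = 2 pools per group, here and below). The corresponding difference in WT LSK cells was -3.94 ± 0.49, with no ratio given because 1 of the 2 irradiated arrays lay below its median. For Nr4a2 the difference was -2.69 ± 0.58 (6.47-fold) in Parp-2-/- and -1.48 ± 0.58 (2.79-fold) in WT LSK cells. For Nr4a3, with both groups below the array median, it was -0.38 ± 0.29 in Parp-2-/- and -0.51 ± 0.29 in WT LSK cells. The RNA came from pooled cells, and fewer cells that make a transcript cannot be told apart from less transcript per cell.

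Of 22961 tested rows, 1.47% were called in Parp-2-/- LSK cells (0.740% lower, 0.727% higher) and 1.80% in WT LSK cells (0.623% lower, 1.18% higher). Among all these rows, 6 had a larger fall than Nr4a1 in Parp-2-/- LSK cells and 1 in WT LSK cells. For Nr4a2 the numbers were 7 and 67, and for Nr4a3 2638 and 1511. These ranks describe how the members were picked.

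The sizes leaned on single pools of unirradiated cells. Without pool 1 of unirradiated Parp-2-/- LSK cells the difference in Parp-2-/- LSK cells was -1.99 for Nr4a1, -1.59 for Nr4a2 and 0.24 for Nr4a3, so that the sign of Nr4a3 turned. Without pool 2 of that group it was -3.44 for Nr4a1, -3.79 for Nr4a2 and -1.0 for Nr4a3. In WT LSK cells, leaving out pool 1 of the unirradiated group gave -3.44 for Nr4a1 and -0.91 for Nr4a2, and leaving out pool 2 gave -4.44 and -2.05. Nr4a1 and Nr4a2 stayed lower in irradiated LSK cells of both genotypes in each of these cases.

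Differences between the genotypes within LSK cells rest on the same arrays and are also given without a test. Irradiated Parp-2-/- minus irradiated WT LSK cells was 0.21 ± 0.49 for Nr4a1, -0.94 ± 0.58 for Nr4a2 and -0.20 ± 0.29 for Nr4a3. The unirradiated difference was -1.01 ± 0.49 for Nr4a1, 0.28 ± 0.58 for Nr4a2 and -0.33 ± 0.29 for Nr4a3. The radiation difference of Parp-2-/- minus that of WT LSK cells was 1.22 ± 0.70 for Nr4a1 and -1.21 ± 0.82 for Nr4a2. The pools of the genotypes overlapped for Nr4a1 in both irradiation states and for Nr4a2 in unirradiated cells, but not for Nr4a2 in irradiated cells. Irradiated Nr4a1 also lay near the array median. No genotype pattern is therefore read from the signs of these differences.

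MP cells gave a contrast that the choice of genes did not use, and here the members were tested. No member was called in either genotype, where 0.588% of rows were called in Parp-2-/- MP cells and 0.671% in WT MP cells (limma, Benjamini-Hochberg adjusted p under 0.05). Nr4a1 differed by -0.86 ± 0.49 in Parp-2-/- MP cells (95% interval -1.93 to 0.21, adjusted p = 1) and by -0.90 ± 0.49 in WT MP cells (-1.97 to 0.17, adjusted p = 0.933). Without 1 array these values ran from -1.48 to -0.24 in Parp-2-/- and from -1.32 to -0.48 in WT MP cells. In Parp-2-/- MP cells both irradiated arrays and 1 of the 2 unirradiated arrays lay below their median, so the size there is not measured. Nr4a2 differed by -0.76 ± 0.58 in Parp-2-/- MP cells (-2.02 to 0.51, adjusted p = 1) and by -0.24 ± 0.58 in WT MP cells (-1.50 to 1.02, adjusted p = 1). The intervals leave room for no change and for falls of more than 1 log2 unit, so with 2 pools a group a fall in MP cells was neither shown nor bounded closely. Nr4a2 in WT MP cells ran from -0.74 to 0.26 without 1 array, so its direction there rests on single pools. For Nr4a3, below the array median throughout, no direction is read.

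The radiation difference in LSK cells minus that in MP cells contains the contrast of the choice and has no test. It was -1.86 ± 0.70 for Nr4a1 and -1.94 ± 0.82 for Nr4a2 in Parp-2-/- cells. In WT cells it was -3.04 ± 0.70 for Nr4a1 and -1.24 ± 0.82 for Nr4a2. The fitted difference of both genes was larger in LSK than in MP cells of each genotype. For Nr4a1 the unirradiated MP groups averaged only 0.62 (Parp-2-/-) and 0.89 (WT) above the array median, so a fall as large as that in LSK cells could not have been read there.

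LSK minus MP cells was also averaged over both genotypes and both irradiation states. This comparison uses the LSK arrays by which the genes were chosen, and the SD of Nr4a1 was larger in unirradiated than in irradiated LSK cells, so the planned test is not independent of the choice and its p-values are no support of their own. Nr4a1 was higher in LSK cells by 1.61 ± 0.25 log2 units (95% interval 1.08 to 2.15, limma adjusted p = 0.000588), at 1.43 to 1.79 over the 16 fits that left out 1 array, each with an adjusted p under 0.05. Nr4a2 was higher by 0.71 ± 0.29 (0.08 to 1.34), with an adjusted p of 0.0669 that missed the threshold. With the pool number as a block its limma adjusted p was 0.0432, and it ranged from 0.0432 to 0.134 over the settings with all arrays. It was 0.00507 without pool 2 of unirradiated Parp-2-/- LSK cells (0.99) and 0.044 without pool 2 of unirradiated WT LSK cells (0.86), and reached up to 0.137 in the other fits without 1 array. Nr4a3 lay below the array median throughout, so its difference is not measured (adjusted p = 0.00823). The share of all rows that passed here was 39.3%, made up of 21.4% higher and 17.9% lower ones, with a median over all rows of 0.12.

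The average hides where the difference lay. In unirradiated cells, LSK minus MP was 2.49 (Parp-2-/-) and 3.18 (WT) for Nr4a1, and 1.61 and 1.41 for Nr4a2. In irradiated cells it was -0.33 (Parp-2-/-) and 0.17 (WT) for Nr4a2, whereas the irradiated values of Nr4a1 lay at or near the array median in both cell types and give no measured difference. For Nr4a2, above the median throughout, irradiated LSK and MP cells stood within 0.33 log2 units of each other. The single differences share their LSK arrays with the contrast of the choice and are values without a test.

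Loss of Parp-2 was tested for the members in 4 ways, and none was called. The average over LSK cells uses the arrays by which the genes were chosen, whose pools spread unequally between irradiation states. Its p-values are therefore not independent of the choice. In LSK cells averaged over irradiation state, Parp-2-/- minus WT was -0.40 ± 0.35 for Nr4a1 (95% interval -1.15 to 0.36, limma adjusted p = 0.765), -0.33 ± 0.41 for Nr4a2 (-1.22 to 0.56, adjusted p = 0.846) and -0.27 ± 0.21 for Nr4a3 (adjusted p = 0.727), with 0.0479% of rows called (0.0392% lower). In irradiated MP cells it was -0.28 ± 0.49 for Nr4a1 and -0.44 ± 0.58 for Nr4a2, with 0.00871% of rows called, and in unirradiated MP cells -0.32 ± 0.49 and 0.08 ± 0.58, with 0.00436% called (limma adjusted p = 1 for each member). The linear model fits 1 spread per row over all 8 groups. The SEs for irradiated MP cells therefore also carry the wider spread of the unirradiated pools. The interaction of genotype with irradiation in MP cells was 0.04 ± 0.70 for Nr4a1 (-1.47 to 1.56) and -0.52 ± 0.82 for Nr4a2 (-2.30 to 1.27). In that comparison limma called 0 of all rows (0.00%), with 199 at an unadjusted p under 0.05. The intervals of both interactions hold changes of more than 1 log2 unit either way, and those of Nr4a1 and Nr4a2 averaged over LSK cells hold a fall of more than 1 log2 unit but no rise of that size.

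Other nuclear receptors did not share the pattern in the sense of a call. Of 46 listed genes of the superfamily, 42 were measured, and limma called 0 of them in each of the 4 radiation responses. Only 20 of the 42 lay above the array median on at least 2 arrays. Under a filter for such rows, after renewed quantile normalisation and with centred arrays, 1 receptor was called higher in WT LSK cells. At an unadjusted p under 0.05 there were 2 in Parp-2-/- LSK cells, 7 in WT LSK cells (2 higher, 5 lower) and 0 in MP cells of either genotype, where 11.8%, 14.7%, 5.8% (Parp-2-/- MP) and 6.2% (WT MP) of all rows were. Their median difference was -0.04 in Parp-2-/- LSK, -0.07 in WT LSK, 0.01 in Parp-2-/- MP and -0.03 in WT MP cells, against medians over all rows of 0.00, -0.02, -0.01 and -0.04. Rxra, which encodes the partner with which Nr4a1 and Nr4a2 proteins can pair, lay below the array median on all 16 arrays, so its difference was not measured (limma adjusted p = 0.993 in Parp-2-/- LSK and 0.508 in WT LSK cells). In LSK minus MP cells, where 21.4% of all rows were higher and 17.9% lower, 18 of the 42 were higher and 1 lower: Rora, a receptor tied to the circadian clock (0.71 ± 0.15), Hnf4a, known from liver (0.61 ± 0.09) and the progesterone receptor gene Pgr were higher, the last with 15 of 16 arrays at or below the array median, and the thyroid hormone receptor gene Thra was lower (-0.71 ± 0.17). The count of higher receptors was 7 after renewed quantile normalisation, where Pgr lost its limma call (adjusted p = 0.0746), and 10 with each array centred on its median. Of all 22961 rows, 4920 were higher in the reported fit, 1951 after quantile normalisation and 1691 with centred arrays.

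Other immediate early genes, the class to which the Nr4a genes belong, were lower as well. All 41 listed genes were measured. The list was chosen with earlier results of these data known, so its counts are not independent of them. In Parp-2-/- LSK cells 9 fell and 1 rose (median -0.84), and in WT LSK cells 12 fell and 0 rose (median -0.77), with 24 and 25 of them lower at an unadjusted p under 0.05. Of all rows, limma called 0.740% lower in Parp-2-/- and 0.623% lower in WT LSK cells. In either direction, 11.8% and 14.7% of all rows had an unadjusted p under 0.05. In MP cells 6 fell in Parp-2-/- (median -0.67) and 4 in WT (median -0.50), where 0.0827% and 0.1% of all rows were called lower. Dusp1, a phosphatase that switches off MAP kinases, Fos, a subunit of the transcription factor AP-1, and Klf6, a Kruppel-like transcription factor, were called lower in all 4 responses. Dusp1 in Parp-2-/- LSK cells had an adjusted p of 0.0491 and was called in 4 of the 16 limma fits without 1 array. With the LSK arrays fitted alone, limma called neither Dusp1 (adjusted p = 0.173 in Parp-2-/- and 0.135 in WT) nor Fos (0.173 and 0.0745), and Klf6 was called in Parp-2-/- (0.0307) but not in WT LSK cells (0.0634).

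Within the list, Fosb, another AP-1 subunit, had the largest called difference in 3 of the 4 responses. Its difference was -3.38 ± 0.53 in Parp-2-/- LSK cells (limma adjusted p = 0.00665), -3.49 ± 0.53 in Parp-2-/- MP cells (adjusted p = 0.00784) and -2.65 ± 0.53 in WT MP cells (adjusted p = 0.043). In WT LSK cells it differed by -2.16 ± 0.53 without a call (adjusted p = 0.061). Klf6 differed by -2.69 ± 0.37 in Parp-2-/- LSK, -2.25 ± 0.37 in WT LSK, -2.92 ± 0.37 in Parp-2-/- MP and -2.36 ± 0.37 in WT MP cells (limma adjusted p = 0.00327, 0.0111, 0.00269 and 0.0111). Tiparp, an ADP-ribosyltransferase induced by the aryl hydrocarbon receptor, differed by -2.53 ± 0.34 in Parp-2-/- and -2.32 ± 0.34 in WT LSK cells. Rgs2, which turns off G protein signals, differed by -2.64 ± 0.29 in Parp-2-/- LSK, -1.92 ± 0.29 in WT LSK and -2.03 ± 0.29 in Parp-2-/- MP cells. It was called in these responses but not in WT MP cells. The related Rgs1 differed by -2.13 ± 0.38 in WT LSK and by -1.90 ± 0.38 in Parp-2-/- LSK cells, both called. Ier3, an immediate early gene tied to cell survival, differed by -2.15 ± 0.43 in WT LSK cells and was called there.

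Set beside this list by size alone, 1 list gene (Fosb) had a larger fall than Nr4a1 in Parp-2-/- LSK cells and 0 had one in WT LSK cells. The members were chosen by these LSK differences, so their LSK ranks describe that choice. In MP cells 16 (Parp-2-/-) and 11 (WT) list genes had a larger fall than Nr4a1. These MP counts are limited by the low level of Nr4a1 in unirradiated MP cells given above. For Nr4a2 the numbers were 1 (Parp-2-/-) and 12 (WT) in LSK cells, and 16 (Parp-2-/-) and 23 (WT) in MP cells. The single called rise was that of Fosl1, an AP-1 subunit, in Parp-2-/- LSK cells (1.35 ± 0.20, limma adjusted p = 0.00524).

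Counts of this list moved with single arrays. The 9 falls in Parp-2-/- LSK cells became 4 without pool 1 of the irradiated group and 4 without pool 1 of the unirradiated group, and 5 with the 8 LSK arrays fitted alone. The 12 falls in WT LSK cells became 4 without pool 1 of the irradiated group, 5 without pool 2 of the unirradiated group and 3 with the LSK arrays alone. In Parp-2-/- MP cells the 6 became 2 without pool 1 of the unirradiated group, 3 without pool 1 of the irradiated group and 4 without either of the other pools, and in WT MP cells the 4 became 0 or 1 without any one of the 4 WT MP arrays. In Parp-2-/- LSK cells 5 called list genes (Rgs2, Klf6, Tiparp, Fosb and the rising Fosl1), in WT LSK cells 4 (Rgs2, Fos, Tiparp, Csrnp1) and in Parp-2-/- MP cells 2 (Klf6, Dusp1) were called whichever array was left out. Between cell types 20 of the 41 were higher and 0 lower in LSK cells, beside 21.4% and 17.9% of all rows. The count of higher list genes was 19 after quantile normalisation and 10 with centred arrays. Of all 22961 rows, 4920 were higher in the reported fit, 1951 after quantile normalisation and 1691 with centred arrays. The largest called differences were those of Rgs1 (1.40 ± 0.19), the kinase gene Sik1 (1.10 ± 0.17), the zinc finger gene Egr1 (1.01 ± 0.26) and the prostaglandin synthase gene Ptgs2 (0.98 ± 0.33). With centred arrays limma did not call Ptgs2 (adjusted p = 0.0648).

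**Figure D3:**
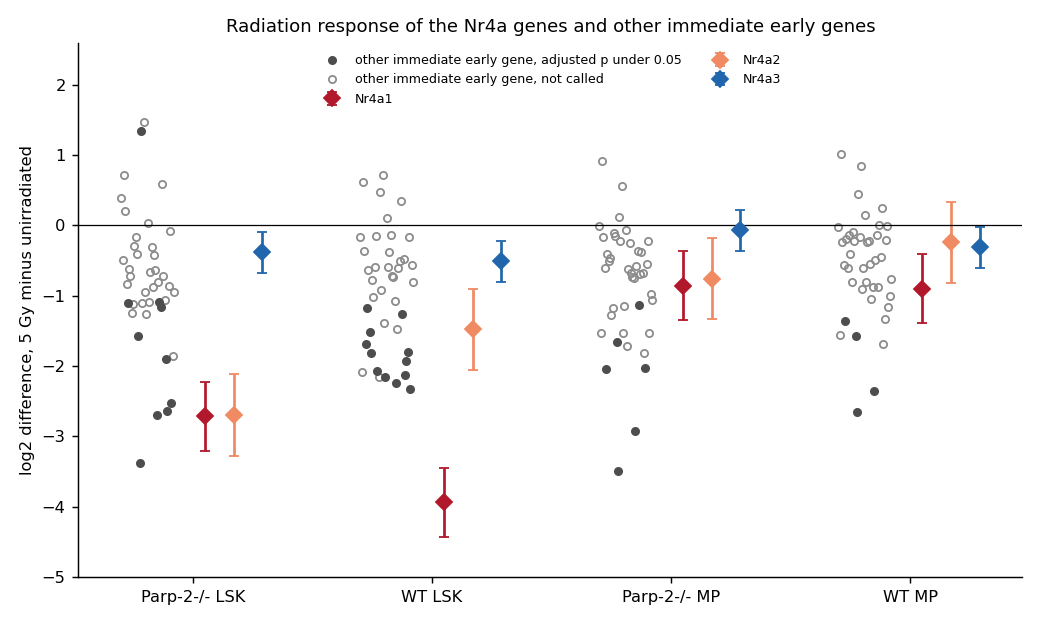
Radiation response (y axis, log2 difference, 5 Gy minus unirradiated) of Nr4a1, Nr4a2 and Nr4a3 (diamonds, with bars of 1 standard error) and of 41 other immediate early genes (circles, filled where the adjusted p was under 0.05) in the 4 combinations of genotype and cell type on the x axis. Circles are spread sideways for visibility. Nr4a1 is lowest of all in WT LSK cells, and most circles lie below 0 in all 4.

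Genes that carry the signals to the Nr4a promoters were listed too: CREB-family factors and their CRTC coactivators, MEF2, ETS-type Elk, MRTF and NFAT factors, class IIa histone deacetylases, protein kinase A and salt-inducible kinases, calcineurin, and receptors and phosphodiesterases of the cyclic AMP path. Of 36 such genes 32 were measured, and limma called 0 in each radiation response (7 in Parp-2-/- LSK, 10 in WT LSK, 4 in Parp-2-/- MP and 6 in WT MP cells at an unadjusted p under 0.05, where the shares of all rows were 11.8%, 14.7%, 5.8% and 6.2%). Of 24 genes for AU-rich element binding and messenger RNA decay, all measured, limma likewise called 0 in each (5, 10, 2 and 2 unadjusted). In WT LSK cells these were 7 higher and 3 lower decay genes, and 2 higher and 8 lower signal genes. In Parp-2-/- LSK cells they were 1 higher and 4 lower decay genes, and 2 higher and 5 lower signal genes. The unadjusted shares of both lists in LSK cells exceeded those of all rows, so 0 calls do not show that the lists were unchanged. Between cell types 9 of the 32 signal genes were higher and 3 lower in LSK cells, beside 21.4% and 17.9% of all rows, among them the cyclic AMP phosphodiesterase gene Pde4b (0.95 ± 0.16) and Mef2c (0.57 ± 0.13), which were higher, and the calcineurin subunit genes Ppp3ca (-0.66 ± 0.12) and Ppp3r1 (-0.57 ± 0.16), which were lower. Among decay genes Zfp36l2 (0.65 ± 0.11) and Zfp36l1 (0.48 ± 0.15), which bind AU-rich elements, were higher, and the exonuclease genes Xrn1 (-0.48 ± 0.11) and Parn (-0.48 ± 0.10) were lower in LSK cells, in a total of 2 higher and 3 lower. After quantile normalisation Ppp3r1 lost its limma call (adjusted p = 0.126), and with centred arrays Zfp36l1 did (adjusted p = 0.0866). With centred arrays the decay genes split into 1 higher and 6 lower and the signal genes into 6 higher and 5 lower. Of all 22961 rows, 1691 were then higher and 4891 lower.

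Nr4a1 shared its profile most closely with a few genes over the 16 arrays, by Pearson correlation among 12188 genes that reached the median level in some group. These were the chemokine gene Ccl4 (r = 0.963), the immediate early gene Csrnp1 (0.955), the kinase gene Stk17b (0.946), the circadian repressor gene Per1 (0.946) and Skil, which encodes a repressor of TGF-beta signals (0.943). Csrnp1 and Per1 are in the immediate early list and Ccl4, Stk17b and Skil are not. Ccl4 averaged 6.30 in irradiated and 6.98 in unirradiated Parp-2-/- LSK cells, and 6.10 in irradiated and 7.39 in unirradiated WT LSK cells, with all MP groups between 5.88 and 6.28. Skil averaged 5.29 in irradiated and 6.27 in unirradiated Parp-2-/- LSK cells, and 5.39 in irradiated and 7.04 in unirradiated WT LSK cells. Both had their highest means in unirradiated LSK cells, like Nr4a1, a likeness by which they were picked.

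The genes closest to Nr4a2 were others: the DNA methyltransferase gene Dnmt3b (r = 0.898), Oser1 (0.895), Ppifos (0.887), Faap20 (0.88) and Rasgef1b (0.867), which encodes a Ras exchange factor. Those closest to Nr4a3 were Il1r2, a decoy receptor for interleukin 1 (0.91), Phf13 (0.9), Tgif2 (0.893), Aebp1 (0.891) and Flnc (0.884). Because Nr4a3 lay below the array median on all 16 arrays, no profile of the gene is read from its correlations. No gene stood in more than 1 of these 3 lists of 5. Between members, r was 0.883 for Nr4a1 and Nr4a2 (0.876 over the 8 LSK and 0.868 over the 8 MP arrays), 0.803 for Nr4a1 and Nr4a3, and 0.765 for Nr4a2 and Nr4a3. The arrays of 1 group share its condition and all values share their normalisation, so these are descriptions only.

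The pools of a group lay far apart for Nr4a1 and Nr4a2 in unirradiated cells. Pool 1 minus pool 2 was 1.45 for Nr4a1 and 2.20 for Nr4a2 in unirradiated Parp-2-/- LSK cells, and 1.01 and 1.15 in unirradiated WT LSK cells. In unirradiated MP cells it was 1.24 and 0.52 in Parp-2-/-, and 0.84 and 0.995 in WT. All 8 gaps exceeded the 95th percentile of the same gap over all tested rows, which was 0.68, 0.74, 0.45 and 0.54 in these 4 groups. In irradiated cells the gaps were between -0.58 and 0.43, and that of Nr4a2 in Parp-2-/- MP cells (0.433 against 0.429) was the one above the 95th percentile.

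The other immediate early genes did not all follow these gaps. Their median gap was 0.28 in unirradiated Parp-2-/- LSK cells (32 of 41 above 0), -0.18 in unirradiated WT LSK cells (12 of 41), 0.54 in unirradiated Parp-2-/- MP cells (39 of 41) and 0.23 in unirradiated WT MP cells (26 of 41). The labels do not say whether pool 1 or pool 2 of different groups were prepared together.

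**Figure D4:**
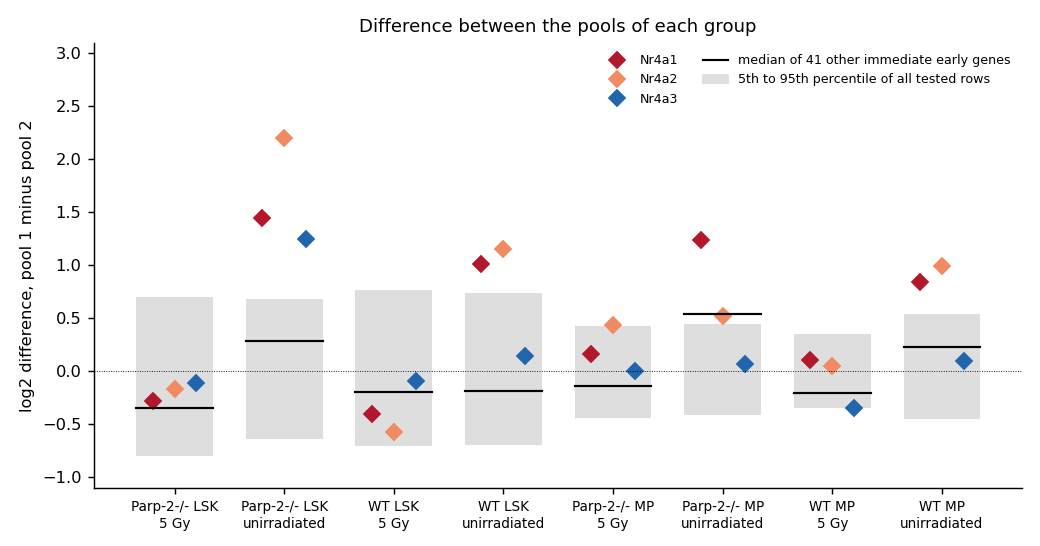
Difference between the 2 pools of each group (y axis, log2, pool 1 minus pool 2) for Nr4a1, Nr4a2 and Nr4a3 (diamonds), with the median of 41 other immediate early genes (black line) and the 5th to 95th percentile of all tested rows (grey box). Nr4a1 and Nr4a2 stand above the box in all 4 unirradiated groups.

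Among the 9 marker lists, 2 had irradiated and unirradiated LSK pools without overlap in both genotypes. The share of all rows with such a separation was not counted. The mean over the 12 LSK markers was 6.93 and 6.96 in irradiated Parp-2-/- LSK cells, against 7.26 and 7.38 in unirradiated Parp-2-/- LSK cells, and 6.80 and 7.03 in irradiated WT LSK cells, against 7.23 and 7.25 in unirradiated WT LSK cells. The mean over the 13 myeloid progenitor markers was 6.28 and 6.47 in irradiated Parp-2-/- LSK cells, against 6.10 and 6.18 in unirradiated Parp-2-/- LSK cells, and 6.27 and 6.30 in irradiated WT LSK cells, against 6.12 and 6.24 in unirradiated WT LSK cells. In MP cells the mean over the same myeloid markers went the other way, at 7.85 and 7.91 in irradiated against 8.08 and 8.14 in unirradiated Parp-2-/- cells. In WT MP cells it was 7.88 and 7.90 against 8.02 and 8.19. In LSK cells the mean over LSK markers was thus somewhat lower and that over myeloid markers somewhat higher after irradiation. There, 4 (Parp-2-/-) and 5 (WT) of the 13 myeloid markers went against their mean, as did 2 and 1 of the 12 LSK markers. Of the LSK markers limma called 0 in either genotype (3 lower at an unadjusted p under 0.05 in each), with a median difference of -0.29 (Parp-2-/-) and -0.37 (WT), and of the myeloid markers it called 1 higher in Parp-2-/- and 0 in WT LSK cells (2 higher unadjusted in each). Hlf, a transcription factor gene of stem cells, lay between 8.37 and 9.08 in LSK cells and between 5.71 and 6.57 in MP cells. Elane, the neutrophil elastase gene of myeloid progenitors, lay between 5.55 and 7.34 in LSK cells and between 8.95 and 9.90 in MP cells. The part of cell composition in the Nr4a differences was not tested.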

How the data were processed

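RNA of 16 pools was hybridised to 16 arrays, 1 per pool. The deposited table holds 1 log2 intensity per array for each of 34760 transcript clusters. Robust multi-array averaging (RMA), affy 2.10, limma and R 2.15 appear in the submitters' processing notes, with no role or order. Base 2 was read from the deposited values; neither the genome build nor the set of arrays that went through normalisation together is given in the sources. Gene symbols came from GEO's platform annotation, updated by Entrez identifier against RefSeq GRCm38.p6 (21553 rows matched, 0 symbols changed): 21640 rows had 1 symbol, 1321 several and 11799 none.

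The 22961 rows with a symbol were fitted without further scaling in limma 3.58.1 under R 4.3.3, with 8 group means over 16 arrays, moderated variances (8 residual and 4.35 prior degrees of freedom), two-sided tests and Benjamini-Hochberg adjustment within each of 9 comparisons, and an adjusted p under 0.05 counted as a call. Genes with several rows entered with the brightest one. Standard errors had a median of 0.207 for differences of 2 groups and of 0.292 for interactions (log2), and the number of arrays limits the precision. The fit was tested on simulated data. The members, the gene lists and the comparisons were chosen with earlier results of these data known. From each list, up to 4 called genes with the largest difference per comparison are named. Also named are Rxra, the genes called lower in all 4 responses, Fosl1, Fosb and Rgs2 in WT LSK cells and Rgs1 in Parp-2-/- LSK cells. The marker examples and the genes called whichever array was left out are named too. All of these additions were chosen after their values were seen. For each member the 5 genes with the highest correlation are named. Pools of 1 group were used as separate samples, since the labels give each as at least 3 mice; whether pools of the same number belong together is not stated. The alternatives were renewed quantile normalisation, centring each array, fitting each cell type alone or with array weights, a filter on dim rows, a trended variance prior, the pool number as a block, and leaving out each array.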

Additional observations from a re-analysis of the deposited data

How the results depend on the processing

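For the 7 comparisons in which the members were tested, 438 of the values under the alternatives kept direction and side of the threshold, 14 changed sign and 3 passed a threshold that the reported value missed. The sign changes outside the fits without 1 array were those of the interaction of genotype and irradiation in MP cells for Nr4a1, -0.013 after quantile normalisation and -0.038 with centred arrays. With the replicate block (pool number), Nr4a2 in LSK minus MP cells was 0.712 and passed at an adjusted p of 0.0432 (0.0432 to 0.134 over the settings with all arrays); the block changed no other call of a member. Deviations of same-numbered pools of the groups compared correlated at -0.077 to 0.111 (-0.173 to 0.227 over all 28 pairs of groups), so the pool number was not taken as a pairing, although pool 1 was above pool 2 for Nr4a1 and Nr4a2 in all 4 unirradiated groups. Over the settings with all 16 arrays Nr4a1 in LSK minus MP cells stayed between 1.52 and 1.63 and was called in each. These fits use the LSK arrays by which the genes were chosen, so the calls are no support of their own.

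Without 1 array (the lone pool of its group is then assumed to vary like the other groups) the ranges that crossed 0 or the threshold were as follows. For Nr4a1, Parp-2 loss in unirradiated MP cells was -0.94 to 0.301 and the MP interaction -0.579 to 0.662. For Nr4a2, LSK minus MP was 0.437 to 0.987, Parp-2 loss averaged in LSK cells -0.881 to 0.22, Parp-2 loss in unirradiated MP cells -0.419 to 0.577 and the radiation response of WT MP cells -0.739 to 0.257. For Nr4a3, Parp-2 loss averaged in LSK cells was -0.578 to 0.044 and in irradiated MP cells -0.29 to 0.055. Nr4a3 has no value under the filter on dim rows, and other rows of a gene could not be tried because each member has 1 row.

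Counts of called rows depended more on the choices. With the arrays of a cell type alone they were 51 (35 higher, 16 lower) for irradiation in Parp-2-/- LSK cells, 35 (28 higher, 7 lower) in WT LSK cells, 365 (265 higher, 100 lower) in Parp-2-/- MP cells and 390 in WT MP cells, against 337, 413, 135 and 154 with all arrays; without 1 array they were 189 to 469, 242 to 537, 43 to 150 and 39 to 176. Parp-2 loss averaged in LSK cells gave 11 (2 higher, 9 lower), 18 with centred arrays (7 higher, 11 lower), 0 with LSK arrays alone, 7 with the block, 2 with the trended prior and 0 to 62 without 1 array. Parp-2 loss in irradiated MP cells gave 2, but 1 after quantile normalisation, with MP arrays alone and with the trended prior, and 1 to 3 without 1 array; in unirradiated MP cells the range was 1 to 2. LSK minus MP gave 9022 (4920 higher, 4102 lower), 4429 after quantile normalisation (1951 higher, 2478 lower) and 6346 to 10465 without 1 array; with centred arrays the split was 1691 higher and 4891 lower. The cause of these shifts was not tested.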
